A study of Mus musculus with 6 samples.

Results

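Spi1 encodes PU.1, and the data described here are the open chromatin of the mouse Spi1 locus in leukemia stem cells with and without MMF. Members were all accessible regions that overlapped the GENCODE M21 Spi1 gene or 40 kb on either side of it, a window of 113.4 kb on chromosome 2 (chr2:91042390-91155756, mm10). The window held 22 of the 112852 regions found over the genome. Of these 22, 11 had a peak in all 6 samples, 1 had a peak in every MMF sample and no control sample, 0 had the reverse pattern and 10 were present in other mixtures of samples.

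ATAC-seq, which marks open chromatin by the insertion of adapters by the Tn5 transposase, was carried out on 3 control and 3 MMF samples. The cells were L-GMP, leukemic granulocyte-macrophage progenitors sorted from mice with MLL-AF9-driven leukemia and used by the study as its LSCs. All 6 samples are labelled as AML LSCs from blood with genotype WT, and were grown as cultured cells with mouse IL3. Treatment was with mycophenolate mofetil (MMF), which inhibits IMPDH, an enzyme of guanine nucleotide synthesis, for 24 h by the labels. The study's own descriptions differ on dose and duration. The labels do not say whether the 3 samples of a group came from separate mice or cultures, so p-values measure only the spread between these samples, which may be technical.

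PU.1 is an ETS-family transcription factor that is needed for the development of monocytes, granulocytes and B cells, and its dose matters: low PU.1 favours leukemia in mice. Its gene is controlled by the promoter and by an upstream regulatory element, an enhancer bound by RUNX1, by C/EBP factors and by PU.1 itself. Deletion of that element in mice lowers PU.1 and leads to myeloid leukemia.

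Elements are named by the distance of their summit from the RefSeq start of the main Spi1 transcript, chr2:91096678 on the plus strand. The promoter region spanned chr2:91096487-91097393 and covers that start and annotated UTR. The upstream element spanned chr2:91082691-91083590, its summit lay at -13.6 kb, and by the annotation it falls within Spi1, in the first intron of transcripts that begin at -14.3 kb. The -7.4 kb element, at chr2:91089102-91089691, lies in the same part of the gene and is intronic. The region with a peak in all 3 MMF lists and no control list lies at -15.4 kb, at chr2:91081173-91081391, and is intergenic, within 1000 bp of the alternative start.

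The 200 bp around 3 of these summits are given below because they carry the contrast described in the following paragraphs: the strongest element within the gene, the element whose peak height was called different, and the region listed in every MMF sample alone. They are read from GRCm38 on the plus strand, and capitals mark matches to the motifs searched on either strand.
Upstream element, chr2:91082957-91083156: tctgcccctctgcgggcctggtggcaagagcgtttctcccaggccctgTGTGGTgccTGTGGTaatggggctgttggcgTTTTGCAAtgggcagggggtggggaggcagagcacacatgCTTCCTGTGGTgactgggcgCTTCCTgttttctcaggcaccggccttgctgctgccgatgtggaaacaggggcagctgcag
Element at -7.4 kb, chr2:91089141-91089340: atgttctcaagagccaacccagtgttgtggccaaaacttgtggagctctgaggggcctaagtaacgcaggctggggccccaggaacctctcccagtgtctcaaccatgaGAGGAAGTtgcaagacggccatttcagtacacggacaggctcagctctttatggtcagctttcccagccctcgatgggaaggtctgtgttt
Region at -15.4 kb, chr2:91081168-91081367: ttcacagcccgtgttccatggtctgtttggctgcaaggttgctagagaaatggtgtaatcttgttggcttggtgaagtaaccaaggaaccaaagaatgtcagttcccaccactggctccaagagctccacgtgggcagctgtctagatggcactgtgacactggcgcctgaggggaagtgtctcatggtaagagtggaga

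The upstream element held 3 matches to the RUNX core ACCACA (as its reverse complement), 2 to the ETS core AGGAAG, 1 of them sharing its last base on the plus strand with a RUNX match, and 1 to the C/EBP letters TTGCNNAA. Windows of the same length around all 112852 regions held at least 1 such match in 25.8%, 40.5% and 15% of cases. These RUNX and ETS cores were added to the search after the sequence had been seen. The -7.4 kb element held 1 match to the PU.1 letters GAGGAAGT, found in 8.28% of all regions, and it was the only one of the 11 elements present in all samples with that match. Among all 22 regions that at +40.1 kb held one too. The shorter PU.1 core GAGGAA (31.2% of regions) and the ETS core are contained in those 8 letters. The region at -15.4 kb held no match to any of the motifs searched. The promoter window held 1 C/EBP match, 1 ETS core and 1 GGGCGG, the SP1 letters, which 13% of regions hold. Of all 22 windows, 3 held the longer RUNX letters AACCACA (10.8% of regions), 4 the AP-1 letters TGANTCA (16.2%) and 1 the STAT letters TTCNNNGAA (6.21%), and none of these lay at the promoter, the upstream element or -7.4 kb. No window of the 22 held GATA letters (AGATAA, 6.89% of regions) or the octamer ATGCAAAT (1.05%). A match to these letters does not show that a factor was bound.

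Peak height was measured as the reads over the summit divided by the genome-wide background of the sample, the reads expected in 150 bp by chance, which scales each sample to its depth. The lists held 58496 to 63911 peaks in control and 80893 to 86556 with MMF, and the genome-wide background was 0.62 to 0.729 reads in control and 0.676 to 0.909 with MMF. Over the 41182 regions with a peak in all 6 lists, limma with Benjamini-Hochberg adjustment called 18.6% higher and 0.969% lower with MMF at an adjusted p of 0.05, and the median difference was 0.165 on the log2 scale. These 7645 higher and 399 lower regions became 2841 and 5715 when each sample was centred on its median height. Of 10 marker genes of GMPs and LSCs, 8 had a promoter peak, Mpo and Prtn3 being the exceptions. The markers of T cells had none (0 of 4), B cell markers had 1 of 4 (Ebf1), and markers of erythroid cells and megakaryocytes had 5 of 6, with no peak at Gata1. Summed heights over these lists were 279 to 298 in control and 327 to 401 with MMF for GMPs and LSCs, 18.8 to 30.2 and 28.6 to 38.5 for B cells, and 152 to 185 and 161 to 168 for the erythroid list. The GMP and LSC markers differed in direction. Of the 5 with a promoter peak in all lists, Ptprc, Csf3r and Kit were higher with MMF (log2 0.84, 0.76 and 0.31). Hoxa9 and Meis1 were lower (log2 -0.36 and -0.40). By height limma called only Ptprc and Csf3r (adjusted p = 0.0127 and 0.0152), beside 2.51% higher and 1.07% lower among all promoters. By local read density, defined below, limma called Hoxa9 and Meis1 lower (log2 -0.57 and -0.78, adjusted p = 0.00231 and 0.00147). It called Ptprc higher (log2 0.35, adjusted p = 0.0282), but not Csf3r or Kit (adjusted p = 0.467 and 0.324). Among all promoters 5.76% were called higher and 13.4% lower in density. The part of these markers and cell types in the results at Spi1 was not tested.

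The Spi1 window was dense in open chromatin. It held 1.94 regions per 10 kb, which placed it at the 96.6 percentile of 21938 protein-coding genes with windows drawn in the same way (median 0.85). Control samples had 17, 13 and 13 peaks in the window and MMF samples 20, 18 and 15. The 2 ranges overlap (exact permutation test, two-sided, p = 0.2, against a smallest possible value of 0.1).

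**Figure D1:**
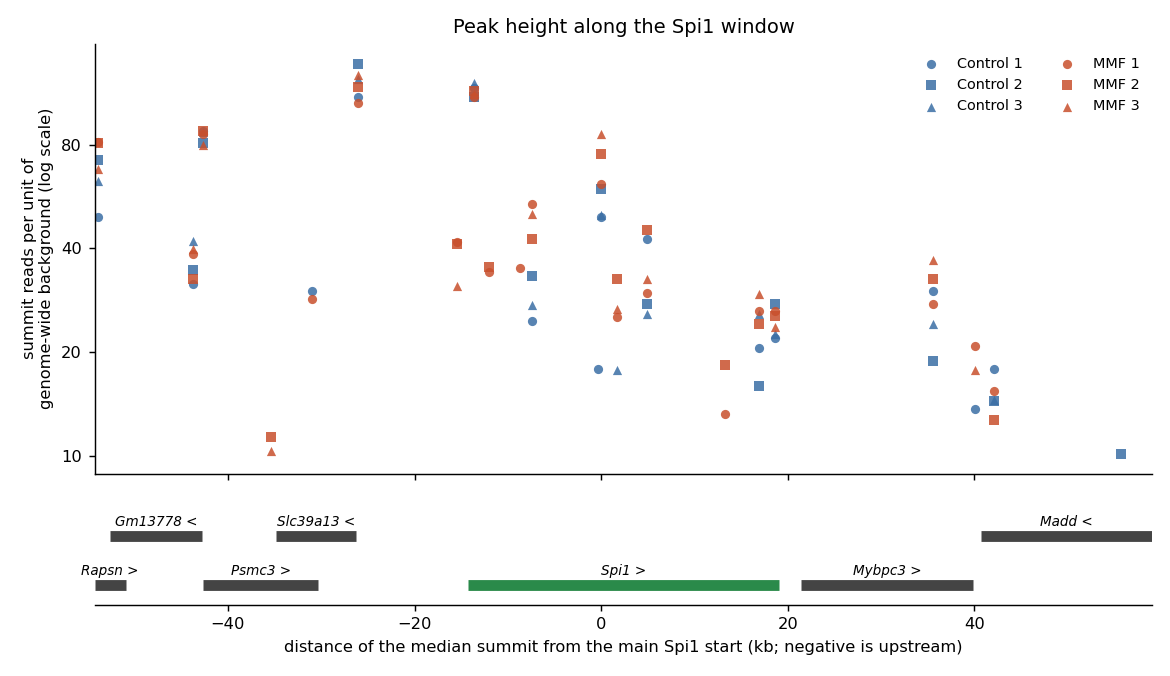
Peak height (reads over the summit per unit of genome-wide background, log scale) for every peak in the window by distance from the main Spi1 start in kb. Blue marks control and orange MMF samples, 1 marker shape per replicate number, with genes and their direction below. The upstream element at -13.6 kb overlaps between groups, while the MMF samples lie above the controls at -7.4 kb and at the promoter.

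The upstream element was the highest peak within the Spi1 gene and did not differ detectably in height between groups. Its summit held 85, 76 and 75 reads in control and 100, 81 and 76 with MMF. Scaled to background, these were 117, 110.0 and 121 in control and 110.0, 115 and 112 with MMF. The groups overlap, and the means were 116 ± 5.53 and 112 ± 2.36 (SD, n = 3 each). The log2 difference was -0.04 (95% interval -0.39 to 0.30), with a limma adjusted p of 0.879. The interval leaves room for changes of either sign up to these limits. Centred on the sample median the difference was -0.40 (limma adjusted p = 0.0812). In control its mean height stood at the 93 percentile of all 41182 shared regions (median 30.7), and its difference at the 31.3 percentile. Among the 29631 shared regions over 1 kb from a start of the GENCODE basic annotation, these stood at the 98.1 and 20.7 percentiles.

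The promoter peak was higher in each MMF sample than in each control sample, but the difference did not pass the threshold. Its summit held 36, 41 and 31 reads in control and 56, 53 and 58 with MMF, or 49.4, 59.3 and 50 against 61.6, 75.1 and 85.8 after scaling. The groups do not overlap, a pattern that 29.1% of shared regions showed in the same direction. Means were 52.9 ± 5.58 and 74.2 ± 12.1 (SD, n = 3 each), and the log2 difference was 0.48 (95% interval 0.07 to 0.89, limma adjusted p = 0.096). It shrank to 0.30 under median-ratio scaling, which shifts each sample by its median difference over shared regions, and to 0.12 when centred on the sample median (limma adjusted p = 0.265 and 0.628). Among other promoters this difference stood at the 95.6 percentile of the 11637 protein-coding genes with a promoter region in all lists, whose median was -0.10. Of those promoters 2.51% were called higher and 1.07% lower. In control the Spi1 promoter stood at the 29.4 percentile of them by height (median promoter 78.4). These promoters were taken at starts of the GENCODE basic annotation, which lists 1 such start for Spi1 and leaves out those at -14.3 kb. Had they been counted, the higher upstream element, with a control mean of 116, would have stood for Spi1 in this ranking.

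The intronic element at -7.4 kb was the only member whose height was called different. Scaled heights were 24.7, 33.3 and 27.4 in control and 53.9, 42.5 and 50.3 with MMF, from 18, 23 and 17 summit reads and 49, 30 and 34. All MMF samples lie above all controls. The means were 28.5 ± 4.39 and 48.9 ± 5.83 (SD, n = 3 each), a 1.72-fold rise, with a log2 difference of 0.78 (95% interval 0.38 to 1.19) and a limma adjusted p of 0.015. The call was lost without control replicate 1 (adjusted p = 0.0502), without MMF replicate 1 (adjusted p = 0.0585) and under median-ratio scaling (log2 0.61, adjusted p = 0.0572), in limma fits that otherwise kept the design. By the ratio of reads to local background it also missed the threshold (log2 fold enrichment 0.37, limma adjusted p = 0.157). Its difference stood at the 86.4 percentile of all shared regions. Among the 29631 over 1 kb from a start of the basic annotation, whose median was 0.317, it stood at the 81.9 percentile.

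Of the 11 elements in all lists, this 1 call is 9.09%, below the 18.6% of all shared regions called higher, and 0 were called lower. At an unadjusted p under 0.05 the same limma test gave 2 higher and 0 lower, beside 11909 and 1533 of all 41182 shared regions. The median log2 difference over the 11 was 0.18, beside 0.165 for all shared regions. The 6 elements within the gene had a median of 0.28 and the 5 outside it 0.04. Those outside, apart from +35.6 kb, lie within 1000 bp of starts of other genes. Of those within, only the promoter and the upstream element lie that close to an annotated start. Over the genome the median was -0.10 at promoters and 0.317 in shared regions over 1 kb from a start of the basic annotation. The part of this in the contrast was not tested. Outside the gene, the start of Slc39a13, a zinc transporter gene, at -26.1 kb was the highest of all. It measured 110.0 to 138 in control and 106 to 127 with MMF. The start of Psmc3, a proteasome subunit gene, at -42.7 kb measured 81.0 to 87.8 in control and 79.9 to 87.8 with MMF. These neighbours overlap between groups, with log2 differences of -0.08 and -0.01 (limma adjusted p = 0.782 and 0.963). The region in an exon near a start of Rapsn, at -53.9 kb, measured 61.6 ± 11.5 and 76.7 ± 7.53 (SD, n = 3 each), also overlapping.

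The remaining elements of the gene, and the Mybpc3 intron element beyond it, were low. The intronic elements at +4.9 kb and +16.9 kb had control means of 31.9 ± 9.20 and 20.8 ± 4.95 and MMF means of 35.9 ± 8.32 and 26.7 ± 2.76 (SD, n = 3 each). The coding exon at +18.6 kb measured 24.0 ± 3.04 and 25.2 ± 1.39, and the Mybpc3 intron at +35.6 kb measured 24.4 ± 5.68 and 32.4 ± 4.74. None of these 4 separated the groups, and their limma adjusted p ranged from 0.196 to 0.798. In order of mean height the first 5 elements were the same in both groups, namely -26.1 kb, the upstream element, -42.7 kb, -53.9 kb and the promoter. The -7.4 kb element moved from rank 8 in control to rank 6 with MMF. The first 2 of that order overlap in both groups, as do -53.9 kb and the promoter.

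**Figure D2:**
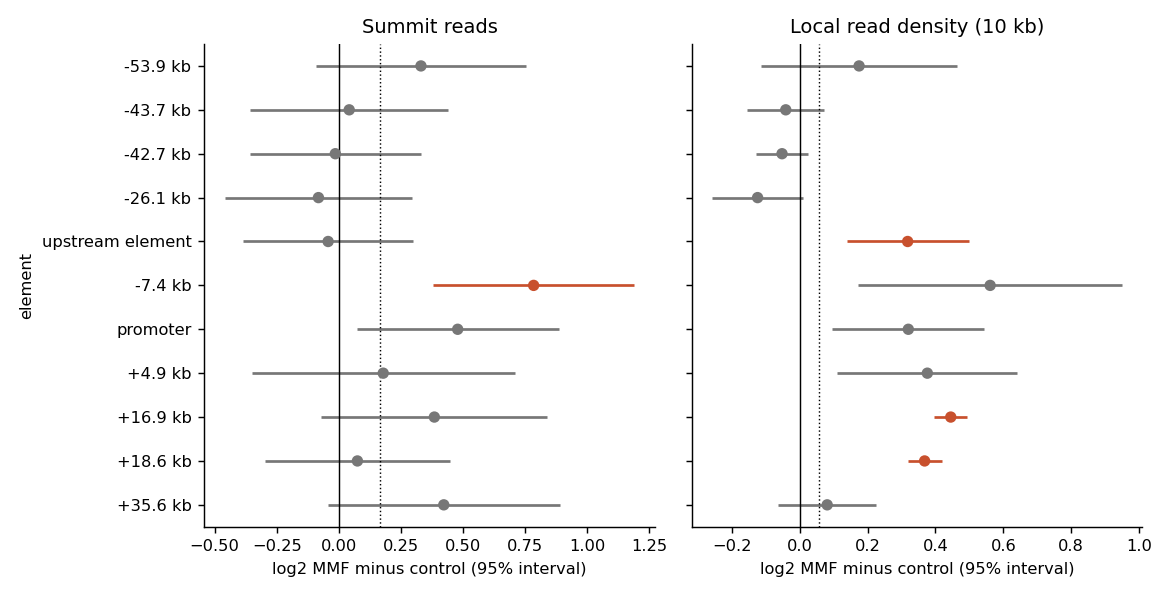
Log2 difference between MMF and control (points, with 95% limma intervals as bars) for the 11 elements in all 6 lists, for summit reads on the left and local read density on the right. Orange marks an adjusted p under 0.05, the solid line is 0 and the dotted line is the median of all shared regions (0.165 and 0.06). The -7.4 kb element is called on the left and the upstream, +16.9 kb and +18.6 kb elements on the right.

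Ratios to the upstream element within a sample do not depend on depth. The promoter had 0.424, 0.539 and 0.413 of the upstream element's summit reads in control and 0.56, 0.654 and 0.763 with MMF. The groups do not overlap, the log2 ratio differed by 0.52, and the exact permutation test gave p = 0.1 (two-sided), the smallest value that 3 against 3 allows. The ratio of the -7.4 kb element was 0.212, 0.303 and 0.227 in control and 0.49, 0.37 and 0.447 with MMF, a log2 difference of 0.83 with the same exact p. Among the 10 elements set against the upstream element, these were the only 2 whose groups did not overlap, while 31.6% of all other shared regions separated upwards by this ratio. After adjustment over the 10 exact tests both had p = 0.4.

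**Figure D3:**
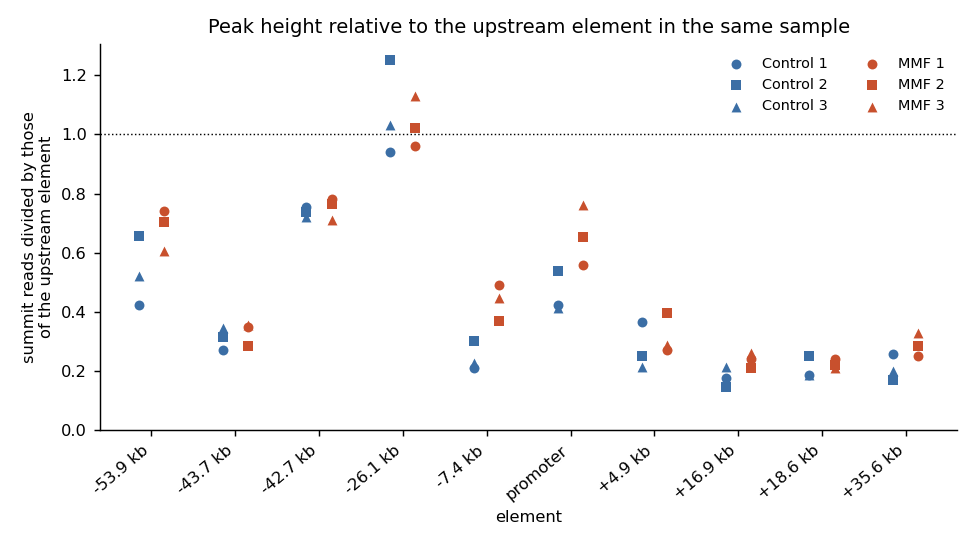
Summit reads of each element divided by those of the upstream element in the same sample (1 point per sample, blue control, orange MMF, marker shape by replicate number). The dotted line at 1 marks equal height. MMF samples lie above all controls for the -7.4 kb element (0.37 to 0.49) and the promoter (0.56 to 0.763) only.

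Around the same summits, reads were counted over a wider span. The local background behind the deposited fold enrichment is the number of reads in the 10000 bp centred on a summit, brought to the 150 bp of the peak model, and dividing it by the genome-wide background gives a local read density, 1 being the genome average. This measure was added after the data had been seen. It was called higher in 19.5% and lower in 6.0% of shared regions, with a median log2 difference of 0.06. Neighbouring elements less than 10 kb apart share reads, so they are not separate observations.

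Local density was higher in every MMF sample than in every control sample at each of the 6 elements of the Spi1 gene. Around the upstream element 392, 379 and 300 reads fell within 10 kb in control and 626, 463 and 414 with MMF, or 8.07, 8.23 and 7.26 times the background against 10.3, 9.84 and 9.19. The groups do not overlap, and the log2 difference was 0.32 (95% interval 0.14 to 0.50, limma adjusted p = 0.0323). The call was lost when any 1 of 5 samples was left out (limma adjusted p up to 0.0913) and kept without MMF replicate 3 (adjusted p = 0.0472). The deposited fold enrichment was 12.5, 11.5 and 13.8 in control and 9.72, 10.3 and 10.7 with MMF. Its log2 difference was -0.30 and was not called (limma adjusted p = 0.186). By that measure limma called 4641 of the 41182 shared regions higher and 97 lower.

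The smallest spread was at the 3' end of the gene. The +16.9 kb element had densities of 2.59, 2.52 and 2.52 in control and 3.50, 3.44 and 3.44 with MMF, a log2 difference of 0.445 (limma adjusted p = 0.00134). The +18.6 kb element had 2.69, 2.73 and 2.66 against 3.43, 3.48 and 3.53, a log2 difference of 0.37 (limma adjusted p = 0.00164). Both stayed under 0.05 when any 1 sample was left out. Their spans overlap by most of their length. The densities at +16.9 kb came from 126, 116 and 104 reads in control and 212, 162 and 155 with MMF. The fit takes its error from the spread between samples and not from such counts, so its p may understate the uncertainty. At the promoter densities were 3.70, 3.86 and 4.11 in control and 4.47, 5.42 and 4.73 with MMF (log2 difference 0.32, limma adjusted p = 0.0554), and at -7.4 kb they were 3.17, 4.06 and 3.07 against 5.46, 5.31 and 4.37 (log2 difference 0.56, limma adjusted p = 0.0537).

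In all, 3 of the 11 elements were called higher in local density (27.3%) and 0 lower, beside 19.5% and 6.0% of all shared regions. Of those called, +16.9 kb and +18.6 kb share most of their span and are not separate observations. At an unadjusted limma p under 0.05 there were 6 and 0. All 6 within the gene had MMF samples above the controls, with a median log2 difference of 0.37, while 31.4% of shared regions showed that separation. None of the 5 outside the gene did so. Their median was -0.04. Over the genome the median density difference was -0.07 at promoters and 0.127 in shared regions over 1 kb from a start. Around Slc39a13 at -26.1 kb density was 6.37 to 6.99 with MMF and 7.02 to 7.62 in control. That difference was not called (log2 -0.12, limma adjusted p = 0.147), and the share of regions separating downwards was not counted. Among the promoters of protein-coding genes 5.76% were called higher in density, and the Spi1 promoter stood at their 95.1 percentile. The density difference of the upstream element stood at the 77.9 percentile of all shared regions and that of the -7.4 kb element at the 91.9 percentile. Among the 29631 over 1 kb from a start, they stood at the 71.5 and 89.3 percentiles.

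**Figure D4:**
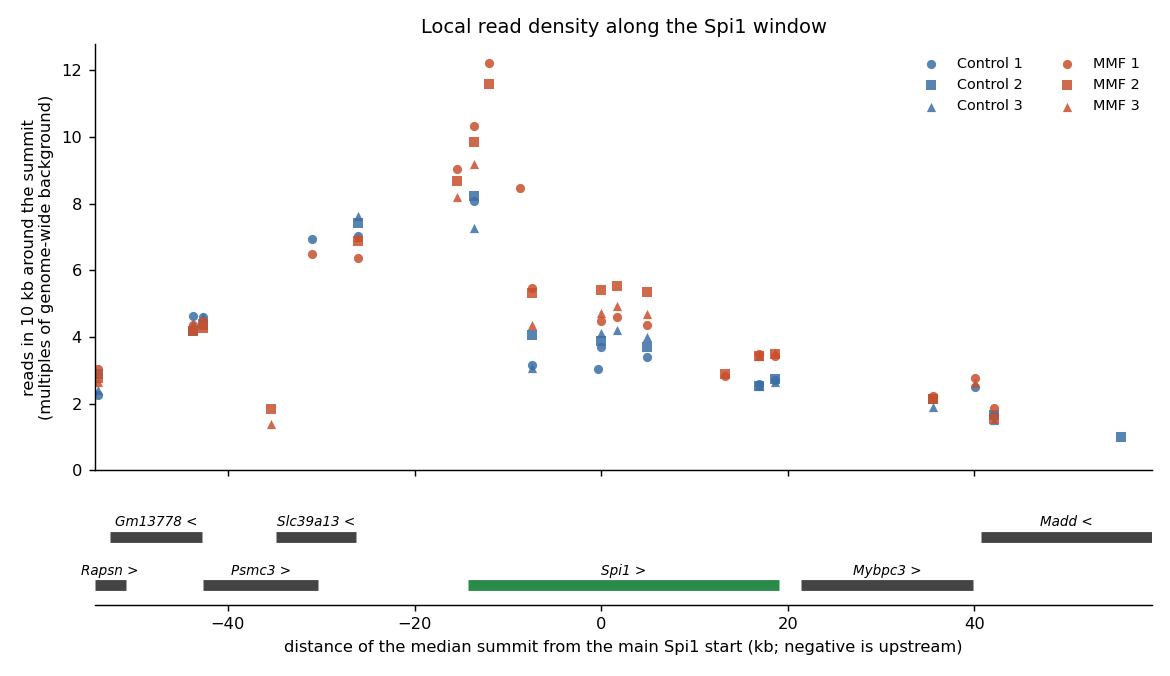
Local read density (reads in the 10 kb around each summit, in multiples of the genome-wide background) for every peak in the window by distance from the main Spi1 start in kb, with genes below. Blue marks control and orange MMF samples, with 1 marker shape per replicate number. MMF samples lie above the controls at every element shared by all samples between -13.6 kb and +18.6 kb, and the highest values, near 12, are those of the -12.0 kb region with MMF.

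The region at -15.4 kb was the only one gained, meaning a peak in 3 MMF and 0 control lists. Over the genome 6.0% of regions were gained and 0.182% lost, and in the window 1 of 22 was gained and 0 lost. Its summit held 38, 29 and 21 reads with MMF, or 41.8, 41.1 and 31.1 after scaling. At the same background relative to the genome, a control summit would have needed at least 15, 15 and 14 reads (20.6 to 22.6 scaled) to be listed. Listed peaks were also at least 150 bp wide, so the height of the controls is not known. When each list was shortened to the 58496 peaks of lowest p, the -15.4 kb peak stayed in 2 of the 3 MMF lists, so 0 regions were gained, and 1 was lost, that at +42.1 kb in Madd.

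Of the other regions found in part of the samples, 4 more were listed with MMF alone. These lay at -35.4 kb in a Psmc3 intron (2 samples) and, in Spi1 introns, at -12.0 kb (2 samples), -8.7 kb (1 sample) and +13.3 kb (2 samples). The -12.0 kb peaks had 34.1 and 35.4 scaled reads in MMF replicates 1 and 2, with the highest local densities of the window, 12.2 and 11.6. At that density a control peak needed 26 to 27.4 scaled reads to be listed. The intronic region at +1.7 kb was listed in 1 control (17.7) and 3 MMF samples (25.3, 32.6 and 26.6). Only 2 regions were listed in control alone, each in 1 sample, at -0.3 kb and +55.7 kb. The lists with MMF were longer, and its part in these counts was not tested beyond the shortened lists.

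Summed over the window, scaled heights were 702, 643 and 645 in control and 887, 856 and 772 with MMF. The groups do not overlap, with means of 663 ± 33.8 and 838 ± 59.2 (SD, n = 3 each) and an exact permutation p of 0.1, the smallest possible. The covered length was 5198 ± 337 bp and 6157 ± 465 bp, and the mean height per peak was 46.8 ± 4.74 and 47.8 ± 3.58 (exact permutation p = 0.8). Over the 11 shared elements alone the sums were 605 ± 18.1 and 671 ± 20.9 (exact permutation p = 0.1). Centring each sample on its own median peak turned the difference in the full sum from 174.8 to -9.07, and lists shortened to equal length gave 99.7 (exact permutation p = 0.1).

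Genes of the PU.1 pathway were described at their own promoters. The lists were drawn from textbook knowledge, but with earlier results of these data known. The close relatives Spib and Spic had no promoter peak in any sample. Of 29 genes for factors that bind or control Spi1, 28 had a promoter peak and 26 had one in all samples, with a median log2 difference of -0.04. In height limma called 1 of the 26 higher and 1 lower, beside 2.51% and 1.07% of all promoters. Satb1, a chromatin organiser, rose from 27.6 ± 6.41 to 55.3 ± 4.65 (log2 1.03, limma adjusted p = 0.00791, SD, n = 3 each). Tcf7, a Wnt pathway factor, fell from 31.4 ± 8.44 to 17.2 ± 1.92 (log2 -0.83, limma adjusted p = 0.0275). Under centring on the sample median the list had 1 higher and 4 lower, beside 2841 and 5715 of the 41182 shared regions. The other 24 did not pass, among them Runx1 (77.2 ± 4.25 and 108 ± 23.3, log2 0.46, adjusted p = 0.117) and Cebpa (138 ± 6.55 and 111 ± 13.6, log2 -0.31, adjusted p = 0.229). In local density 1 of the 26 was called higher and 5 lower, Cebpa, Ikzf1, Fos, Myb and Tcf7 being the 5, against 5.76% higher and 13.4% lower among all promoters.

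Of 25 genes known as PU.1 targets in myeloid cells, 20 had a promoter peak and 17 had one in all samples. Of these 17, 4 rose and 0 fell, against 2.51% and 1.07% of all promoters, and the median log2 difference was 0.23. At an unadjusted limma p under 0.05 there were 6 and 0, beside 11909 and 1533 of all 41182 shared regions. The share of promoters at that limit was not counted. Since the list was chosen with earlier results of these data known, these counts are a description and not a test. Median-ratio scaling left 2 higher and 0 lower, and centring on the sample median gave 0 higher and 1 lower. Itgam, which encodes the integrin chain CD11b, rose from 35.9 ± 8.12 to 67.2 ± 4.43 (log2 0.92, limma adjusted p = 0.0094). The paper had already reported a more accessible Itgam promoter with MMF. Lyz2, the lysozyme of myeloid cells, rose from 23.1 ± 2.78 to 41.0 ± 2.74 (log2 0.83, limma adjusted p = 0.00827). Csf3r, the G-CSF receptor, and Itgb2, the chain that pairs with CD11b, differed by 0.76 and 0.60 (limma adjusted p = 0.0152 and 0.0443). In local density 8 of the 17 were called higher and 0 lower, beside the same 5.76% and 13.4%. The unadjusted limma p was under 0.05 for 9 and 1, beside 11742 and 4466 of all 41182 shared regions. Csf2ra, with 108 ± 5.92 and 88.4 ± 14.3, had the lowest log2 difference of the list, -0.30 (limma adjusted p = 0.275). No gene of either list was called by limma when regions were ranked by fold enrichment in place of scaled height, with 1 higher and 4 lower target genes at an unadjusted p under 0.05. Over all 41182 shared regions that ranking gave 4943 higher and 4606 lower at the same limit.

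The promoters whose heights followed that of Spi1 most closely over the 6 samples were those of Amigo1 (Pearson r = 0.99), A530032D15Rik (0.988), Pstpip1 (0.983), Atg14 (0.982) and Cst7 (0.979). These were the highest of 11636 promoters, of which 91 or 0.782% had r over 0.9. The values describe 6 samples in 2 groups that share depth scaling, and carry no test. Cst7, which encodes cystatin F, had 17.8, 26 and 16.1 in control and 24.2, 35.4 and 39.9 with MMF, so its groups overlap where those of Spi1 do not.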

How the data were processed

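ATAC-seq peaks of 3 control and 3 MMF samples were used. Per the paper's methods the authors aligned to mm10 by Bowtie2 and ran MACS2 per sample. Tool versions are not given in the sources used here. The deposited lists give each peak's fold enrichment, a ratio of summit reads to local background, its p and q as -log10 values and an integer score. The score was not used, since it repeats the -log10 p.

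Peaks on chromosomes 1 to 19, X and Y were kept and merged into regions at an overlap of 1 bp. Since fold enrichment is (reads + 1) / (background + 1), it yields summit reads and local background when combined with the Poisson p, and reads came out whole for 100.0% of peaks in each list. Median summits held 14 to 19 reads, so weak peaks carry wide counting error. The most frequent background of a list was taken as genome-wide. Among peaks above it, 292188 were checked, which left out those with the highest local background. In 100.0% of these the local background was a whole multiple of 150/10000 reads (tolerance 0.1). A local density at the genome-wide floor, 16.3% of values in shared regions, is a limit. Library totals were not used here, and depth enters only through this background.

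Shared regions were fitted by lmFit and eBayes of limma 3.58.1 (R 4.3.3, Benjamini-Hochberg over all 41182, threshold 0.05) on log2 of reads per background, without a block or pseudocount. Steps were tested on simulated data. Single values were compared by exact permutation tests over samples (scipy 1.17.1). A promoter was the highest shared region within 1000 bp of a start of a protein-coding transcript in the GENCODE M21 basic annotation. Named genes were Spi1, genes with a start in the window, listed genes past the threshold with up to 4 examples, and the 5 promoters most like Spi1. The upstream element was the strongest region 13 to 16 kb upstream of the start. The annotation gives several Spi1 starts, and that of the main RefSeq transcript was used. The members, lists and motifs were chosen with earlier results of these data known. Sequences were read from GRCm38 with pysam 0.24.0. The promoter sequence is not shown. The alternatives covered the measure, scaling, each sample left out, the replicate number as a block, list length, overlap and promoter width.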

Additional observations from a re-analysis of the deposited data

How the results depend on the processing

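The upstream element and the promoter stayed on the same side of the threshold under every alternative run for summit height. Ranking by fold enrichment (as normal scores) left 0 of the 11 elements called and, over the genome, 594 higher and 175 lower, against 7645 and 399. Ranks by -log10 p gave 0, 533 and 192, centring on the sample median gave 0, 2841 and 5715, and median-ratio scaling, added after seeing the data, gave 0, 4116 and 1157. Leaving out 1 sample gave 0 to 1 elements, 4683 to 6485 higher and 183 to 255 lower regions, 1 to 3 gained regions, 1 to 2 calls among regulators and 2 to 4 among targets. Ranks by fold enrichment gave 0 calls in both lists, and promoters of 500 bp gave 2 among targets. At equal list length 0 regions were gained and 1 was lost. The summed height reversed to -9.07 under centring on the sample median (exact permutation p = 0.9). The -7.4 kb element kept its direction but not its call under ranks by fold enrichment (adjusted p = 0.798), by -log10 p (0.325) and sample-median centring (0.11). Same-numbered samples did not deviate together (r of -0.00128, 0.00388 and -0.00257), so the numbers were not taken as pairs. With the replicate block limma called 6924 regions higher and 293 lower, and the -7.4 kb element at an adjusted p of 0.0352. For local density the block gave 4899 higher and 1453 lower, against 8031 and 2469. The causes of these shifts were not tested. Peaks below the calling threshold have no value, so a change there was not detectable.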
